A study of Rattus norvegicus with 36 samples.

Results

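The genes examined here were 10 genes of glucose uptake, glycolysis, lactate export and itaconate synthesis, chosen by name from the 25597 gene names on the array: Hif1a, Slc2a1, Hk2, Hk3, Pfkfb3, Pgk1, Eno1, Ldha, Slc16a3 and Acod1. They were represented by 18 probes, all of which passed the filter on dim signals, and 5 of the genes had more than 1 probe. RNA came from the accessory lung lobe of female Sprague Dawley rats that were 13 weeks old at instillation. Anesthetized rats received the crystalline silica DQ-12, a quartz dust used as a reference fibrogenic particle, at 10 mg/rat in sterile saline through the trachea, or the saline vehicle alone, and were killed 1, 30 or 180 days later (D1, D30 and D180). Each of the 6 groups held 6 rats, with 1 single-color array a rat and 36 arrays in all. DQ-12 was given as a single bolus at 1 dose, and lavage in this study was done on the left lung and not on the lobe used for the arrays. The authors ground the DQ-12 before use, which lowered its particle size and crystallinity and left some tungsten and cobalt in it.

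Cells that burn glucose take it up through carriers such as GLUT1 (Slc2a1), trap it by phosphorylation with a hexokinase, split it to pyruvate, and, when pyruvate is not oxidized, reduce it to lactate, which leaves through MCT4 (Slc16a3). The transcription factor HIF-1 can raise most of these genes, and its alpha subunit (Hif1a) is set largely by protein stability. In activated macrophages and neutrophils this route runs high, and activated macrophages also make Acod1, the mitochondrial enzyme that turns cis-aconitate of the citric acid cycle into itaconate, a metabolite that restrains succinate dehydrogenase and inflammation.

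At D180 the signal of Hk3 was 5.09-fold that of vehicle rats, Hk2 2.52-fold and Slc16a3 2.52-fold. Acod1 was higher at all 3 times from a vehicle signal at or near background, and at D180 its probe was well above background on 5 DQ-12 arrays and 1 vehicle array. Hk3 and Slc16a3 were higher in DQ-12 rats at all 3 times. Eno1 and Pgk1, from the lower part of glycolysis, were higher at D1 and D180. The change of Hif1a itself did not pass the threshold at any time.

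In the limma fit over 23940 genes, 7 of the 10 genes passed an adjusted p of 0.05 at D1 (6 higher and Pfkfb3 lower), where 16.2% of all genes did (7.58% higher and 8.62% lower). At D30, 4 of the 10 passed, all higher, against 3.98% of all genes (2.74% higher and 1.24% lower). At D180, 7 of the 10 passed, all higher, against 16.8% of all genes (7.82% higher and 9% lower). With a fold change of at least 2 added, the calls were Slc16a3 and Acod1 at D1 (2 of 10, and 2.02% of all genes higher), Hk3 and Acod1 at D30 (2 of 10, and 0.915%), and Hk2, Hk3, Slc16a3 and Acod1 at D180 (4 of 10, and 2.86%). The median log2 fold change (log2FC) of the 10 genes was 0.45 at D1, 0.40 at D30 and 0.69 at D180, while that of all genes tested was -0.01, -0.02 and -0.03.

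**Figure D1:**
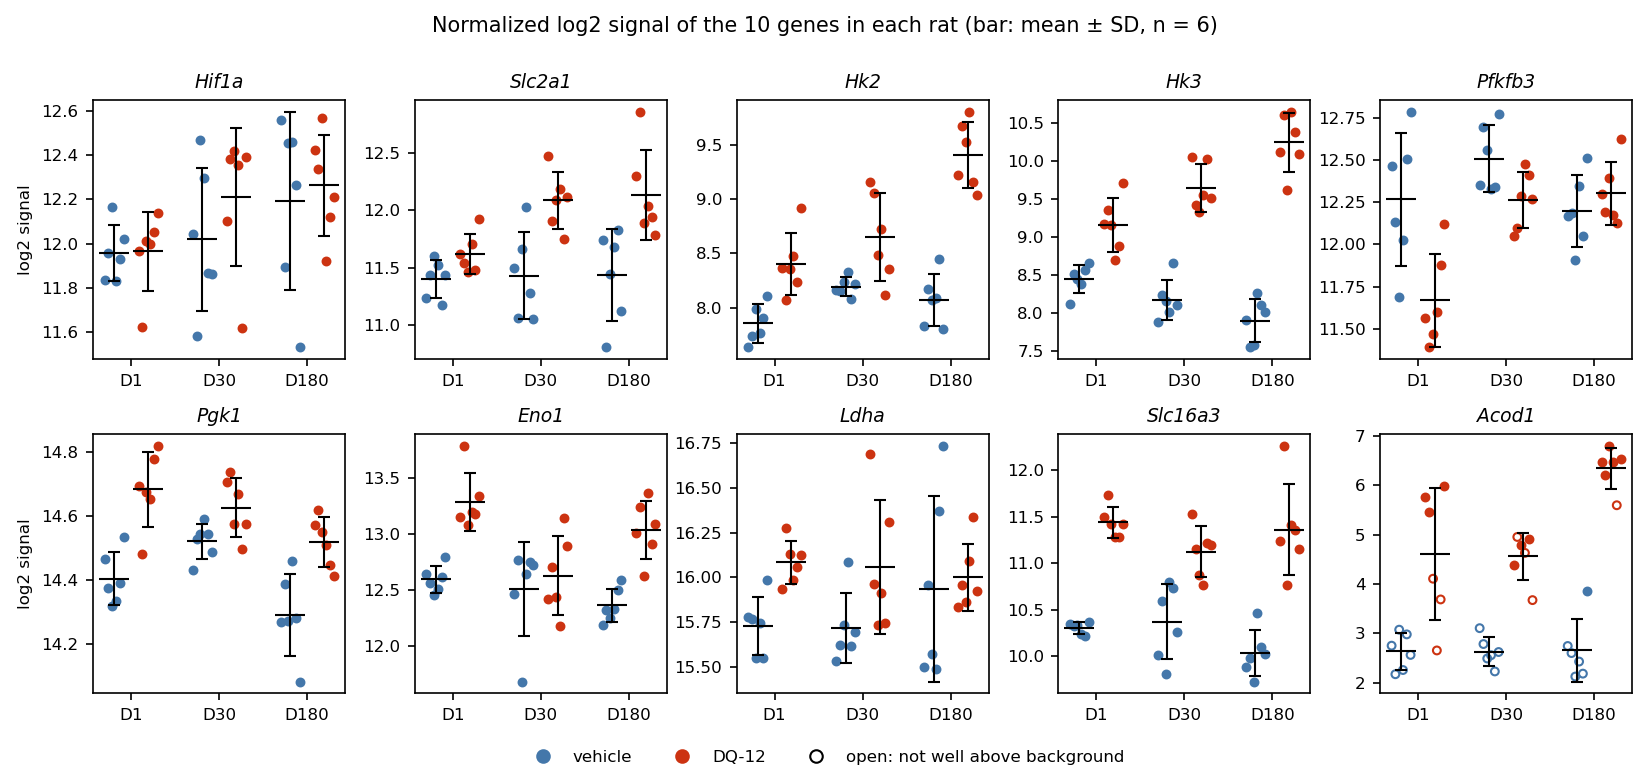
Normalized log2 signal (vertical axis) of each gene in every rat, by time after instillation (horizontal axis), with vehicle rats in blue and DQ-12 rats in red. Bars give the mean and SD of 6 rats, and open points were not well above background on that array. Hk3 separated the groups at D1, D30 and D180, and Acod1 was well above background on 1 of 18 vehicle arrays.

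Arrays resembled each other within groups (Pearson r over genes 0.956 to 0.989), and 51.4% to 75.5% of probes were well above background on an array. The alveolar type 2 cell markers, which mark distal lung, had mean log2 signals of 15.36 to 16.04 in every rat, but at D30 they stood apart, at 15.58 to 15.80 in vehicle and 15.92 to 16.04 in DQ-12 rats, and 3 of 8 were higher there and 4 at D180. All 5 alveolar type 1 and all 5 erythroid markers were lower at D180, where 1 of 8 lymphocyte markers was higher and 0 of 5 fibroblast markers passed in limma (0 higher and 1 lower at an unadjusted p under 0.05). In all 19 slides and 11 scan dates were used. At D1 all 6 DQ-12 arrays shared a scan date with 1 vehicle array, while the other 5 vehicle arrays were scanned on other dates. With scan date as a fixed block, limma called 0 of the 10 genes at D1, and 1.12% of all genes. At an unadjusted p under 0.05 it was 5 of the 10, and 2983 of all 23940 genes. The same block called Hk3 and Acod1 at D30, and all of the 7 genes but Pgk1 at D180. With slide as a fixed block the calls were Slc16a3 at D1, Hk3 and Slc16a3 at D30, and Hk3 at D180. For those of the 10 that passed at D1, the difference is therefore given below with their value inside the shared scan date, which rests on that vehicle array. No such value is given for other genes, whose D1 changes below rest mainly on vehicle arrays of other scan dates. At D30 both scan dates held both groups, and at D180 2 dates did. The D30 dates, in the order of the values below, held 4 vehicle arrays and 1 DQ-12 array, then 2 and 5. Those of D180 held 3 of each group, then 1 of each, so the second D180 value compares single arrays.

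The core letters bound by HIF-1, ACGTG or GCGTG on either strand, were looked up in the 250 bases before the gene start of RefSeq (build GRCr8), for which 9 of the 10 genes had an entry. At least 1 match was present for 6 of the 9, and in 36.7% of all 33469 windows of this length. The windows below are those of Hk2, Slc16a3 and Acod1, with a fold change above 2 at D180, and of the 2 genes with the most matches. Hk3 also had a fold change above 2 at D180, and its window, not printed, held 1 match. Capitals mark the matches, and CACGTG, the letters of an E-box, holds ACGTG on both strands and counts for each.
Hk2 (GRCr8 chr4:116841276-116841525, minus strand): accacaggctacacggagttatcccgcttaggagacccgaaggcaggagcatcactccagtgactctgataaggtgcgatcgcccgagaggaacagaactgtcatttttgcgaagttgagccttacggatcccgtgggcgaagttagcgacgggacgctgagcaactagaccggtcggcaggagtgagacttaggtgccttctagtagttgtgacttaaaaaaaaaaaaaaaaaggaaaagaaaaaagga
Slc16a3 (GRCr8 chr10:106712078-106712327, plus strand): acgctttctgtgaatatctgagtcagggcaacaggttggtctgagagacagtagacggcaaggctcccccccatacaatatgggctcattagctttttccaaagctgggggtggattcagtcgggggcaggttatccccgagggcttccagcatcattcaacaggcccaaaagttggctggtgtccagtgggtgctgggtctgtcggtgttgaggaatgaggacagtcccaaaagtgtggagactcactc
Acod1 (GRCr8 chr15:86286289-86286538, plus strand): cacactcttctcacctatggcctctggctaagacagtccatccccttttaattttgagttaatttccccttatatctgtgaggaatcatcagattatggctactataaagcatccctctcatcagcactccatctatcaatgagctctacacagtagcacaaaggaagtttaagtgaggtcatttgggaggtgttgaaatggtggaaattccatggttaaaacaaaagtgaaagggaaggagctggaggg
Slc2a1 (GRCr8 chr5:138002272-138002521, plus strand): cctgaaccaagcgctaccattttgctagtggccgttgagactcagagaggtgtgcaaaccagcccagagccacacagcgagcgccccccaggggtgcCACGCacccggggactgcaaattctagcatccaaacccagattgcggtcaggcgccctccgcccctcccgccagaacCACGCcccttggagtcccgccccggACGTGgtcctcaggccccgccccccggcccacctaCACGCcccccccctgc
Ldha (GRCr8 chr1:106507842-106508091, plus strand): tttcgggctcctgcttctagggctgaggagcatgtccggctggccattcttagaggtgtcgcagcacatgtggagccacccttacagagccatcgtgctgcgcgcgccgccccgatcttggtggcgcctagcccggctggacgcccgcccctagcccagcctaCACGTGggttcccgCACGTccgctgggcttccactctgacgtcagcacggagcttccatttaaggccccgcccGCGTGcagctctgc
The windows of Hk2, Slc16a3 and Acod1 held 0 matches, and those of Slc2a1 and Ldha held 4 each, a number reached by 2.44% of all windows. Hif1a had 3, Pfkfb3 2 and Hk3 1, and each of the 2 windows of Eno1 had 1. These letters are short, so a match describes the sequence and does not mark a bound site.

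Hif1a was read by 2 probes, at chr6:96463815-96463874 and chr6:96462636-96462695 in the rn4 coordinates of the array files. With the brighter probe the log2 signal at D1 ran from 11.83 through a median of 11.94 to 12.17 in vehicle rats and from 11.62 through 12.01 to 12.14 in DQ-12 rats. At D30 it ran from 11.58 through 11.95 to 12.47 against 11.62 through 12.37 to 12.42, and at D180 from 11.53 through 12.36 to 12.56 against 11.92 through 12.27 to 12.57. The groups overlapped at all 3 times. Its log2FC was 0.01 at D1 (95% interval -0.32 to 0.33), 0.19 at D30 (-0.13 to 0.52) and 0.07 at D180 (-0.26 to 0.40), so a fold change of 2 lay outside each interval for this probe. The dimmer probe gave 0.65, 0.77 and 0.10 with an SE of 0.49, and none of these passed.

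Other genes of the HIF pathway, and other HIF targets, formed a list of 23. Slc2a3 and Pdk1 on it also stand in the lists of carriers and of flux genes below, so the D1 fall of Pdk1 counts in both. Of these, 0 rose and 4 fell at D1 (5 and 6 at an unadjusted p under 0.05). At D30 0 rose and 1 fell (0 and 4), and at D180 2 rose and 4 fell. Of all genes, 7.58% rose and 8.62% fell at D1, 2.74% and 1.24% at D30, and 7.82% and 9% at D180. These shares also stand beside the counts of the other gene lists. Vegfa, the endothelial growth factor, fell by 0.43 on the log2 scale at D1 (SE 0.11, adjusted p = 0.00601) and by 0.65 at D180 (SE 0.11, adjusted p = 5.25e-05). Egln1, the prolyl hydroxylase that marks HIF-1 alpha for destruction, was lower at each time, with a log2FC of -0.42, -0.32 and -0.52. Epas1, which encodes the HIF-2 alpha subunit and is rich in lung endothelium, fell by 0.37 at D180 (adjusted p = 0.00553). The 2 that rose at D180 were Ndrg1, with a log2FC of 0.49, and Bhlhe40, with 0.72. All 6 endothelial markers on the list were lower at D180, and the range of their mean log2 signal was 12.57 to 13.07 in DQ-12 rats against 13.45 to 13.55 in vehicle rats. At D1 0 of these 6 passed (4 were lower at an unadjusted p under 0.05). Of 5 alveolar type 1 markers, 2 were lower at D1 and 5 at D180. The part of either cell type in the lower Vegfa and Epas1 was not tested.

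Slc2a1, the widely expressed glucose carrier, was higher at the later times. Its log2 signal at D30 ran from 11.05 through 11.39 to 12.03 in vehicle rats and from 11.75 through 12.10 to 12.48 in DQ-12 rats, with 4 DQ-12 rats above every vehicle rat. At D180 it ran from 10.80 through 11.56 to 11.83 in vehicle rats and from 11.78 through 11.99 to 12.86 in DQ-12 rats, where 5 DQ-12 rats did. The log2FC was 0.70 at D180 (SE 0.18, adjusted p = 0.00511) and 0.66 at D30 (SE 0.18, adjusted p = 0.0299). At D1 it was 0.22 (95% interval -0.14 to 0.58) and did not pass. The D30 call was lost when any of 7 rats was left out (vehicle rats 1, 2, 5 and 6 and DQ-12 rats 1, 4 and 6, with log2FC of 0.58 to 0.67 and adjusted p of 0.0505 to 0.101). The call of the Slc2a1 D180 log2FC was lost with each time fitted alone (adjusted p = 0.0673). Within the 2 scan dates of D30 the difference in mean log2 signal was 0.53 and 0.31.

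Of 15 other glucose and lactate carriers, 0 rose and 2 fell at D1 (3 and 4 at an unadjusted p), 0 rose and 1 fell at D30 (3 and 1), and 3 rose and 2 fell at D180. Slc2a6, a carrier found in phagocytes, rose by a log2FC of 1.54 at D180 (SE 0.19, adjusted p = 2.85e-07). Slc2a4, the insulin-responsive carrier of muscle and fat, fell by 0.77. For Slc2a3, the high-affinity carrier of neurons and leukocytes, the log2FC was 0.16, 0.06 and -0.33, none past the threshold.

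Hk2, the inducible hexokinase that binds mitochondria, is placed by its array probe at chr4:116924279-116924338. Its log2 signal at D1 ran from 7.63 through 7.83 to 8.11 in vehicle rats and from 8.07 through 8.36 to 8.92 in DQ-12 rats. At D30 it ran from 8.08 through 8.19 to 8.33 against 8.11 through 8.60 to 9.15, and at D180 from 7.80 through 8.08 to 8.45 against 9.04 through 9.38 to 9.80. The ranges met at D1 and D30 but stood wholly apart at D180. The log2FC was 0.55 at D1 (SE 0.16, adjusted p = 0.0139), 0.45 at D30 (adjusted p = 0.102) and 1.33 at D180 (SE 0.16, adjusted p = 1.44e-07). A second probe, at chr4:116925790-116925849, gave -0.32 at D1 (adjusted p = 0.325 over all probes), 0.14 at D30 and 1.11 at D180 (adjusted p = 0.000130), so the D180 rise was seen with either probe and the D1 rise with the brighter alone. Inside the shared scan date of D1 the difference was 0.42, and the D1 call was also lost with slide or scan date as a random block.

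Hk3, the hexokinase of myeloid cells, has its probe at chr17:15668934-15668993. In vehicle rats the log2 signal ran from 8.11 through 8.48 to 8.66 at D1, from 7.89 through 8.14 to 8.65 at D30 and from 7.55 through 7.96 to 8.26 at D180. In DQ-12 rats it ran from 8.70 through 9.16 to 9.71, from 9.33 through 9.53 to 10.06 and from 9.63 through 10.25 to 10.65. Every DQ-12 rat was above every vehicle rat of its time. The log2FC was 0.71 at D1 (SE 0.18, adjusted p = 0.00470), 1.47 at D30 (SE 0.18, adjusted p = 1.14e-06) and 2.35 at D180 (SE 0.18, adjusted p = 1.70e-11), and the exact permutation p was 0.00216 at each time, the smallest that 6 against 6 allows. The increase at D180 exceeded that at D1 by 1.63 (95% interval 1.13 to 2.14, adjusted p = 0.000130 for the difference, which 4.55% of all genes passed). Inside scan dates the difference was 0.71 at D1, 1.81 and 1.49 at D30, and 2.21 and 2.84 at D180.

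Hk1, the constitutive hexokinase, had a log2FC of 0.16 at D1 (SE 0.24), -0.55 at D30 and -0.19 at D180, and none passed. Macrophage markers moved in the same rats: 5 of 11 were higher at D1, 7 at D30 and 7 at D180, and none was lower. Their mean log2 signal was 8.73 to 8.98 in vehicle and 9.10 to 9.26 in DQ-12 rats at D1, 8.49 to 8.71 and 9.01 to 9.70 at D30, and 8.76 to 9.37 and 9.81 to 10.15 at D180. Marco, a scavenger receptor of alveolar macrophages, was well above background on 0 DQ-12 arrays at D1 and 0 vehicle arrays at D30. Of 10 neutrophil markers 1, 2 and 4 were higher and 1 was lower at each time, and 1 was well above background on 0 arrays in each group. At D1 their mean was 7.20 to 7.77 in vehicle rats, while DQ-12 rats had a lowest value of 7.13 and a median of 7.75. It was 7.35 to 7.79 and 7.82 to 8.20 at D30, and 6.94 to 7.73 and 8.14 to 8.62 at D180. In RNA of a whole lobe, more cells of a type and more RNA in each cell cannot be told apart, and the part of these cells in the changes of Hk2, Hk3, Slc16a3 and Acod1 was not tested.

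**Figure D2:**
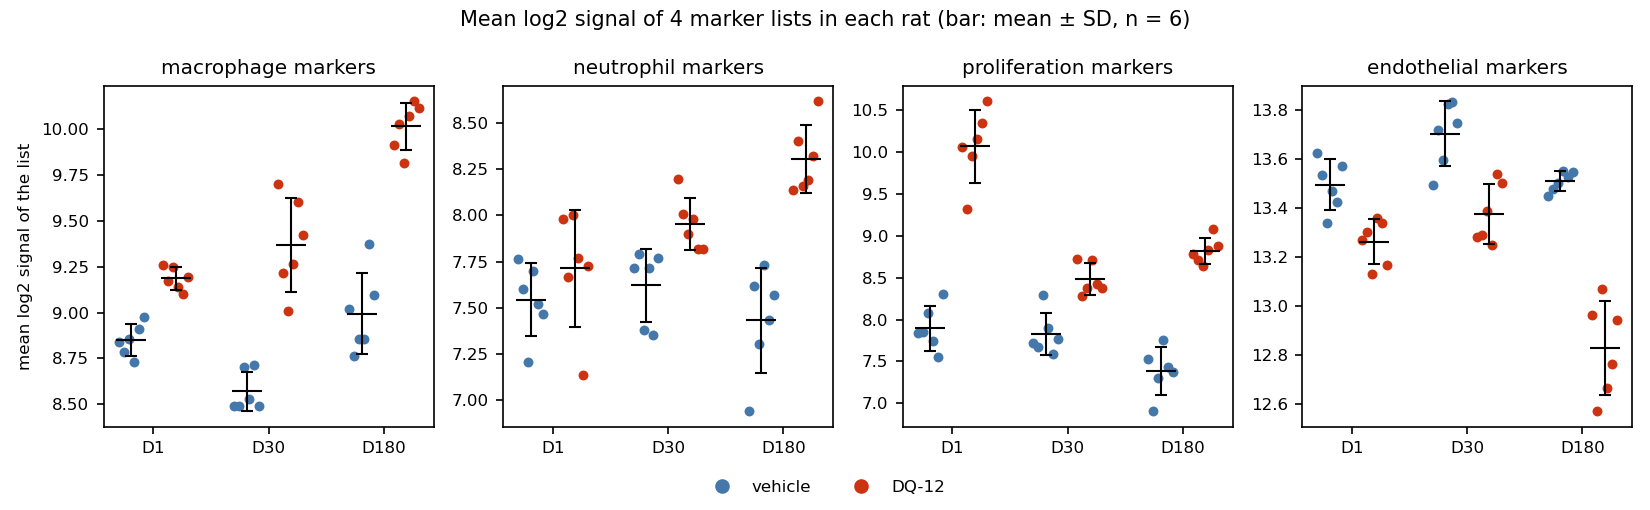
Mean log2 signal over each marker list (vertical axis) in every rat by time (horizontal axis), vehicle in blue and DQ-12 in red, with bars for mean and SD of 6 rats. The means of every list stood apart between groups at D180, with endothelial means lower and the others higher in DQ-12 rats. The macrophage mean was 9.81 to 10.15 in DQ-12 rats at D180, and the groups also stood apart for it at D1 and D30.

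Pfkfb3 makes fructose 2,6-bisphosphate, the activator of phosphofructokinase, and was the only one of the 10 that was lower. Its log2 signal at D1 ran from 11.69 through 12.30 to 12.78 in vehicle rats and from 11.39 through 11.58 to 12.12 in DQ-12 rats. The groups overlapped, with 4 DQ-12 rats below all vehicle rats. The log2FC was -0.60 at D1 (SE 0.15, adjusted p = 0.00435), -0.24 at D30 (adjusted p = 0.448) and 0.11 at D180 (adjusted p = 0.711). Inside the shared scan date of D1 the difference was -0.02, and of the other probes of the gene the one detected on 35 arrays gave 0.08 at D1 (SE 0.16), the one detected on 12 arrays -0.00 (SE 0.78). The D1 decrease therefore rested on 1 of 3 probes and on vehicle arrays of other scan dates.

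The other genes that set the flux of glycolysis did not move one way. Of 20 such genes, 4 rose and 6 fell at D1, 2 rose and 0 fell at D30 (4 and 4 at an unadjusted p), and 3 rose and 2 fell at D180. Pfkfb2, another enzyme that makes the same activator, was higher at each time, with a log2FC of 0.45 (adjusted p = 0.00652), 0.56 (adjusted p = 0.00256) and 0.76 (adjusted p = 9.71e-06). Fbp1, which runs the phosphofructokinase step backwards, fell by 1.20 at D1 (SE 0.28, adjusted p = 0.00283) and by 1.53 at D180 (adjusted p = 0.000136). Txnip, an inhibitor of glucose uptake, fell by 1.11 at D1 (SE 0.25, adjusted p = 0.00192). Pdk1, a kinase that inhibits pyruvate dehydrogenase, fell by 0.45 at D1 (adjusted p = 0.00432). The D1 changes of these genes were not looked at inside the shared scan date.

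Pgk1, which makes the first ATP of glycolysis, changed by little but with small spread. Its log2 signal at D1 ran from 14.32 through 14.38 to 14.54 in vehicle rats and from 14.48 through 14.68 to 14.82 in DQ-12 rats, and 5 DQ-12 rats exceeded the vehicle range. At D180 it ran from 14.08 through 14.28 to 14.46 against 14.41 through 14.53 to 14.62, with 4 DQ-12 rats above that range. The log2FC was 0.28 at D1 (SE 0.07, adjusted p = 0.00401), 0.10 at D30 (adjusted p = 0.498) and 0.23 at D180 (SE 0.07, adjusted p = 0.0170). Without vehicle rat 6 of D180 the last value was 0.18 (adjusted p = 0.0576), and this Pgk1 D180 log2FC also missed the threshold with scan date (0.0721) or slide (0.884) as a fixed block and with each time fitted alone (0.144). Inside the shared scan date of D1 the difference was 0.37.

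Eno1, the enolase of most tissues, gave the same picture with each of its 3 probes. With the probe at chr5:167405206-167405265 the log2 signal at D1 ran from 12.46 through 12.59 to 12.80 in vehicle rats and from 13.08 through 13.19 to 13.78 in DQ-12 rats. At D180 it ran from 12.19 through 12.33 to 12.59 against 12.62 through 13.05 to 13.36. The groups did not overlap at either time. At D30 they did, at 11.69 through 12.69 to 12.77 against 12.18 through 12.57 to 13.14. The log2FC was 0.69 at D1 (SE 0.16, adjusted p = 0.00291), 0.12 at D30 (95% interval -0.21 to 0.45) and 0.67 at D180 (SE 0.16, adjusted p = 0.00282). The other probes gave 0.68 and 0.82 at D1, 0.04 and -0.05 at D30, and 0.76 and 0.66 at D180. Neither step between times passed the test of the difference (-0.57 from D1 to D30, adjusted p = 0.201, and 0.55 from D30 to D180, adjusted p = 0.333), although without vehicle rat 3 of D30 the step from D1 to D30 was -0.73 (adjusted p = 0.0334). Inside the shared scan date of D1 the difference was 0.83.

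Proliferation markers were higher at all 3 times. All 5 passed at D1 with a fold change of at least 2. At D30 4 passed without reaching it, and at D180 all 5 reached it. Their median log2FC was 2.08, 0.61 and 1.46. Their mean log2 signal was 7.55 to 8.31 in vehicle and 9.32 to 10.61 in DQ-12 rats at D1, 7.59 to 8.30 and 8.29 to 8.72 at D30, and 6.91 to 7.76 and 8.64 to 9.08 at D180. Their part in the changes of Eno1 and Pgk1 was not tested.

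For Ldha, the muscle-type lactate dehydrogenase subunit that favors lactate formation, the result differed from probe to probe. The brightest probe (chr1:97412488-97412547) had log2 signals at D1 of 15.55 through 15.76 to 15.98 in vehicle rats and 15.94 through 16.09 to 16.27 in DQ-12 rats. There 4 DQ-12 rats exceeded all vehicle rats, but at D180 the vehicle rats spread from 15.49 to 16.73 and enclosed all DQ-12 rats. Its log2FC was 0.36 at D1 (SE 0.17, adjusted p = 0.158), 0.34 at D30 (adjusted p = 0.323) and 0.06 at D180 (adjusted p = 0.867). The probes at chr1:97411929-97411988 and chr1:97412370-97412429 gave 0.73 and 0.72 at D1 (adjusted p = 0.00142 and 2.48e-06 over all probes), 0.02 and 0.23 at D30 (not past the threshold), and 0.49 and 0.35 at D180 (adjusted p = 0.0322 and 0.0117). At D1 Ldha passed in 4 of 15 alternatives. These were 75th percentile scaling, the deposited log2 values, each time fitted alone and the median of its probes. The difference of the brightest probe inside the shared scan date of D1 was 0.54. Ldhb, the heart-type subunit, was higher at D1 (log2FC 0.55, adjusted p = 0.00611) and D180 (0.42, adjusted p = 0.0320).

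**Figure D3:**
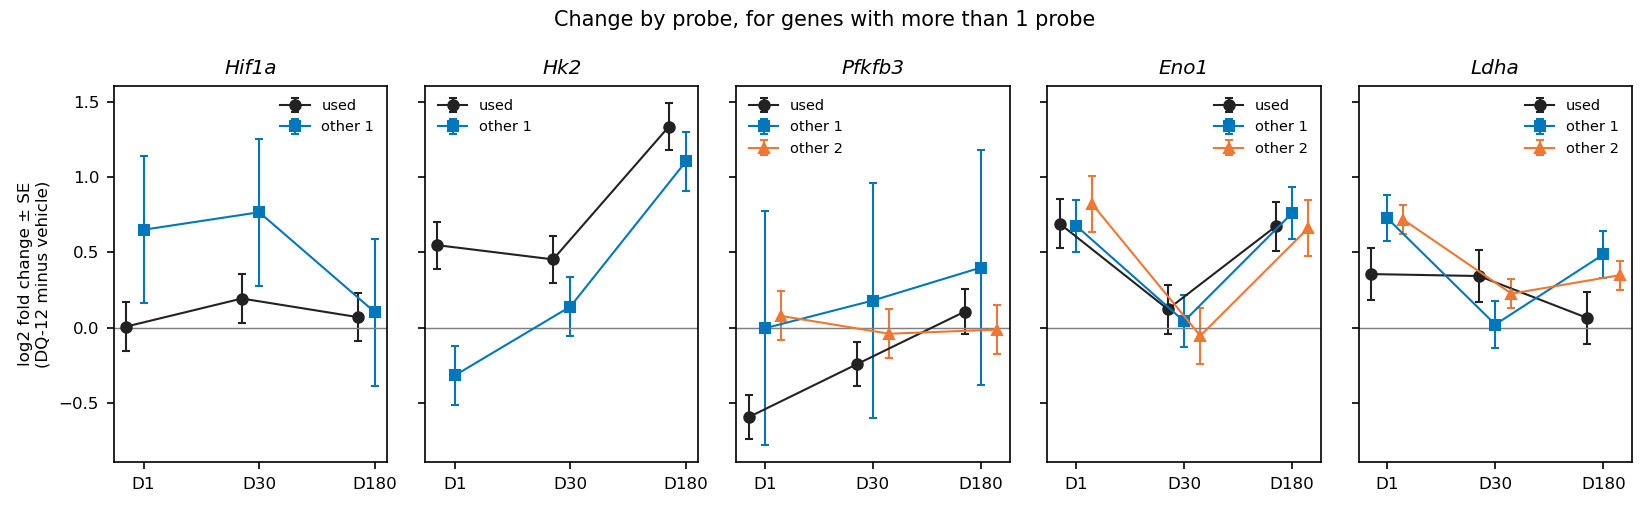
Log2FC (DQ-12 minus vehicle, vertical axis) with SE at each time (horizontal axis) for every probe of the 5 genes with more than 1 probe. The probe used is in black. The 3 Eno1 probes ran together, with 0.68 to 0.82 at D1, while the probes of Hk2 at D1, Pfkfb3 and Ldha parted.

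Some other enzymes of glycolysis passed at D1 and D180, and none passed at D30, when only 3.98% of all genes did. Of 20 tested, 7 rose and 0 fell at D1, 0 rose and 0 fell at D30 (6 and 2 at an unadjusted p under 0.05), and 6 rose and 2 fell at D180. The median log2FC was 0.20, -0.00 and 0.30. Gapdh, often used as a reference gene, had a log2FC of 0.85 at D1 (SE 0.13, adjusted p = 9.99e-06), 0.40 at D30 (adjusted p = 0.0679) and 0.80 at D180 (adjusted p = 1.70e-05). Pkm, the pyruvate kinase of most tissues, had 0.89 at D1 (adjusted p = 5.18e-06) and 0.44 at D180 (adjusted p = 0.0128). Eno2, the neuronal enolase, had 0.78 at D1 and 0.90 at D180 (adjusted p = 0.000414 and 4.40e-05). Ldhc, the testis-type subunit, was higher at D1 (adjusted p = 0.0220), by an amount not well measured, since its probe was well above background on 1 vehicle and 5 DQ-12 arrays. The 2 that fell at D180, Pfkm and Pgam2, are the muscle forms (log2FC -0.63 and -0.87), and 2 of 10 striated muscle markers, Myh6 and Myl7, fell there too (-0.60 and -0.92). The mean of the muscle markers was 8.53 to 10.28 in vehicle and 8.32 to 8.76 in DQ-12 rats at D180. Vehicle rat 5 set the upper end, and the next vehicle rat stood at 9.15. The part of muscle in these changes was not tested.

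Slc16a3, the lactate exporter of strongly glycolytic cells, was higher at each time (probe at chr10:110163119-110163178). In vehicle rats the log2 signal ran from 10.22 through 10.33 to 10.37 at D1, from 9.81 through 10.43 to 10.80 at D30 and from 9.73 through 10.01 to 10.47 at D180. In DQ-12 rats it ran from 11.28 through 11.42 to 11.73, from 10.77 through 11.18 to 11.53 and from 10.77 through 11.30 to 12.26. The groups stood apart at D1 and D180, and at D30 a DQ-12 rat fell just inside the vehicle range. The log2FC was 1.13 at D1 (SE 0.18, adjusted p = 2.56e-05), 0.75 at D30 (SE 0.18, adjusted p = 0.00982) and 1.33 at D180 (SE 0.18, adjusted p = 1.27e-06). Inside the shared scan date of D1 the vehicle array stood at 10.34 and the DQ-12 mean at 11.44. Inside scan dates the difference was 0.81 and 0.80 at D30, and 1.40 and 1.37 at D180. The D30 call was lost with scan date as a fixed block (adjusted p = 0.0817 for the Slc16a3 D30 log2FC) and with each time fitted alone (0.0730). It was the only one of the 10 to pass at D1 with slide as a fixed block (log2FC 1.14, adjusted p = 0.0111).

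Partners of Slc16a3 moved less at D1 and D180, while at D30 Bsg moved by a like amount the other way. Bsg, the chaperone that brings MCT4 to the cell surface, fell by 0.76 at D30 (SE 0.21, adjusted p = 0.0314) and had a log2FC of -0.17 at D1 and -0.15 at D180, which did not pass. Slc16a1 (MCT1), the more general lactate carrier, had 0.51 at D1 (adjusted p = 0.0551), 0.40 at D30 and 0.57 at D180 (adjusted p = 0.0319). Emb, another chaperone of these carriers, was higher at D180 with 0.66 (adjusted p = 5.14e-05).

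Acod1 was higher at each time, from vehicle signals at or near background (probe at chr15:87065832-87065891). Its log2 signal in vehicle rats ran from 2.18 through 2.66 to 3.08 at D1, from 2.23 through 2.59 to 3.11 at D30 and from 2.13 through 2.52 to 3.86 at D180. In DQ-12 rats it ran from 2.66 through 4.78 to 5.98, from 3.67 through 4.71 to 4.95 and from 5.59 through 6.46 to 6.79. At D1 1 DQ-12 rat lay within the vehicle range, and at D30 and D180 none did. The log2FC was 1.97 at D1 (SE 0.38, adjusted p = 0.000424), 1.92 at D30 (SE 0.38, adjusted p = 0.00194) and 3.68 at D180 (SE 0.38, adjusted p = 1.57e-08). The probe was well above background on 0 vehicle and 3 DQ-12 arrays at D1 and likewise at D30, so the size of these changes is not well measured. Set against the lowest signal of any probe well above background on each vehicle array, it was 2.34-fold higher at D1 and 1.84-fold at D30. These are not lower bounds, since at D30 the Acod1 probe read 4.95 on a DQ-12 array without being well above background. At D180 it was well above background on 1 vehicle and 5 DQ-12 arrays, so the D180 log2FC also rests on mostly unmeasured vehicle levels. With normexp background correction, which compresses dim signals, the log2FC was 0.46, 0.35 and 1.00, under a fold change of 2 at each time, and the D30 call was lost (adjusted p = 0.0572 for the Acod1 D30 log2FC). Inside scan dates the difference was 1.53 at D1, 2.23 and 1.96 at D30, and 4.05 and 2.99 at D180.

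Genes around itaconate in the citric acid cycle shifted by less. Of 25 tested, 4 rose and 1 fell at D1, 2 rose and 0 fell at D30 (6 and 2 at an unadjusted p), and 5 rose and 0 fell at D180, and none reached a fold change of 2. Cs, citrate synthase, was higher at each time (log2FC 0.50, 0.32 and 0.59), and Idh1, the cytosolic isocitrate dehydrogenase that yields NADPH, at D30 (0.42) and D180 (0.80).

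**Figure D4:**
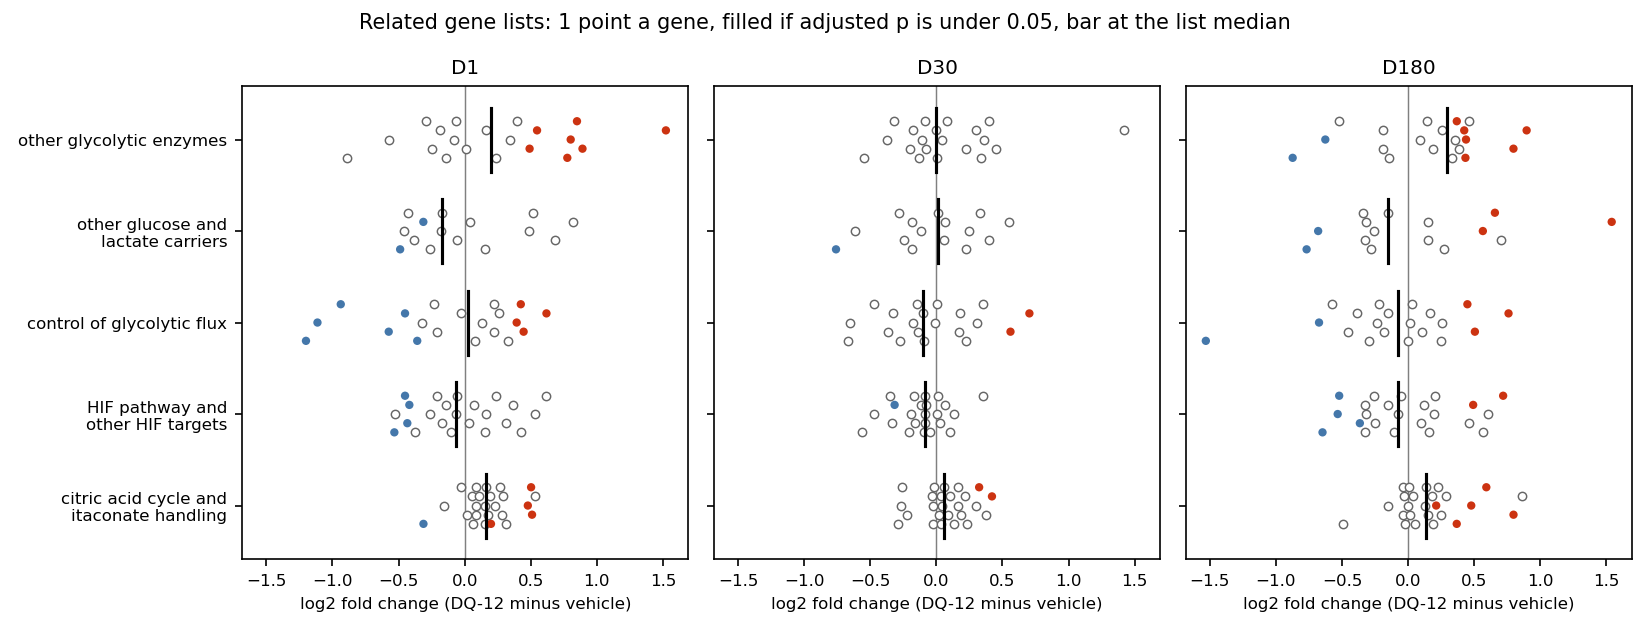
Log2FC (DQ-12 minus vehicle, horizontal axis) of every gene of 5 related lists (rows) at D1, D30 and D180. Each point is a gene, filled where adjusted p was under 0.05 (red higher, blue lower), with a bar at the list median. The median of the other glycolytic enzymes was 0.20, -0.00 and 0.30.

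Set side by side over time, the changes of 3 genes differed between D1 and D180 (4.55% of all genes did): Hk3 as above, Hk2 by 0.79 (95% interval 0.34 to 1.24, adjusted p = 0.0327) and Pfkfb3 by 0.70 (0.28 to 1.12, adjusted p = 0.0434). The Pfkfb3 difference takes in its D1 decrease, which rested on the brightest probe alone and on vehicle arrays of other scan dates. Acod1 differed by 1.70 (0.60 to 2.81) with an adjusted p of 0.0631. For Slc16a3 the difference was 0.20 (-0.31 to 0.71), and for Eno1 it was -0.02 (-0.48 to 0.45). Between D1 and D30, limma called 0 of the 10 and 2.18% of all genes, and between D30 and D180 0 of the 10 and 0.246%. At an unadjusted p under 0.05 it was 2 of the 10 and 3827 of all 23940 genes between D1 and D30. Between D30 and D180 it was 5 of the 10 and 2807 of all genes. Every DQ-12 rat lay above every vehicle rat for 3 of the 10 genes at D1 (Hk3, Eno1 and Slc16a3), 2 at D30 (Hk3 and Acod1) and 5 at D180 (Hk2, Hk3, Eno1, Slc16a3 and Acod1), where 5.24%, 1.81% and 3.84% of all genes did so.

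**Figure D5:**
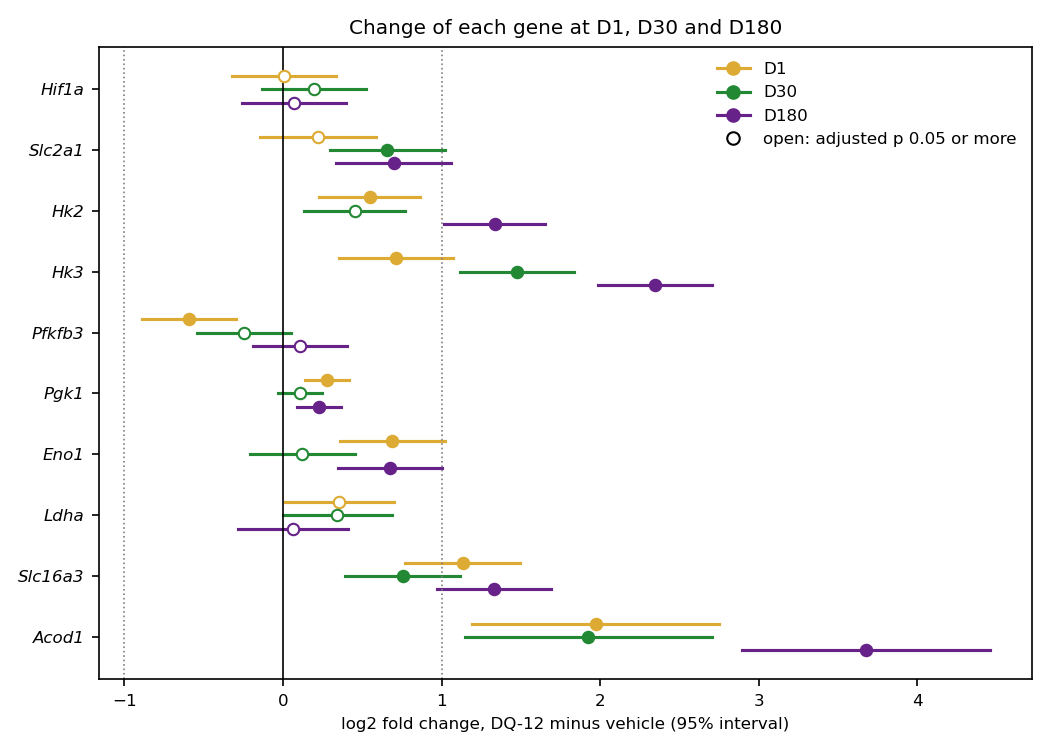
Log2FC (DQ-12 minus vehicle, horizontal axis) with its 95% interval for each gene (rows) at D1, D30 and D180. Filled points have an adjusted p under 0.05 and dotted lines mark a fold change of 2. Hk3 moved to the right with time, from 0.71 to 2.35, and Hif1a stayed at 0.01 to 0.19.

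For the 4 genes past both thresholds at some time, the genes with the most similar signal over the 36 arrays were looked up as a description. Hk3 ran closest to Ifi30, a lysosomal thiol reductase (Pearson r = 0.977), Trem2, a lipid receptor of macrophages (0.948), and RGD1559482 (0.941). Acod1 ran closest to Il1rn, the interleukin-1 receptor antagonist (0.899), LOC102550137 (0.891) and Mmp12, the macrophage elastase (0.891). Slc16a3 ran closest to Syne4 (0.919), Kng2 (0.913) and Dok3 (0.907), and Hk2 to LOC100911842 (0.914), Mreg (0.908) and LOC689757 (0.906). These arrays share their groups, so the correlations include the shift between vehicle and DQ-12 rats.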

How the data were processed

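Each rat's RNA was hybridized to 1 single-color (Cy3) Agilent array. The authors deposited Feature Extraction 12.0.1.1 files, which hold spot intensity before and after background correction, and a table of log2 values that equals log2 processed intensity after scaling each array to its 75th percentile and centering each probe on its median (median absolute difference 0.00119 over 1641528 values, array medians -0.15 to 0.23). The methods name quantile filtering, quantile normalization and an unnamed batch correction.

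Here, outlier spots (232 to 596 of 58717 an array) were left out, the log2 processed intensity was averaged over the spots of a probe, and probes above the 95th percentile of 308 negative controls on at least 6 arrays were quantile normalized (42200 of 45598 probes). The brightest probe stood for a gene. Limma 3.58.1 (R 4.3.3) fitted 6 group means to 36 arrays with no batch term, 2-sided, with Benjamini-Hochberg adjustment over 23940 genes in each comparison. Thresholds were adjusted p under 0.05, alone or with a fold change of at least 2. Single genes were also given a 2-sided exact permutation test over all 924 splits of a time's 12 arrays. The fit was tested on simulated data. Groups come from the labels, which do not say how rats were housed or batched. The number of arrays limits the precision.

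The 10 genes and the gene lists were chosen with earlier results of these data known. By rule, the named genes were the 10, genes of each pathway list past both thresholds, a fixed set of paralogs, partners and neighbors in the pathway (Vegfa, Gapdh, Pkm and Pdk1 among them), and the 3 genes most similar to each of the 10 past both thresholds. Egln1, Ndrg1, Bhlhe40, Slc2a4, Emb, Pfkm, Pgam2, Cs, Idh1, Marco, Myh6 and Myl7 fall outside it and were chosen after their values were seen. Alternatives were other intensities, scaling, filters, probe rules, moderation, batch and replicate blocks, and leaving out each rat. Same-numbered rats did not vary together (r of deviations above 0.1 for 1, 2 and 3 of 6 pairs at D1, D30 and D180). Promoter windows came from RefSeq (GRCr8). No annotation of the rn4 build was used here, so exon and UTR positions of probes are not given. A related gene list is not reported here.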

Additional observations from a re-analysis of the deposited data

Results flagged for a closer look

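Of 60 groups of 6 rats examined, 5 held a rat whose log2 signal stood far from the others by Dixon's criterion, and chance gives about 1 in 20. DQ-12 rat 2 of D1 was low for Hif1a (11.62, nearest 11.97) and high for Eno1 (13.78, nearest 13.34). Vehicle rat 3 of D30 was low for Eno1 (11.69, nearest 12.47). Vehicle rat 4 of D30 was high for Ldha (16.09, nearest 15.73). Vehicle rat 6 of D180 was high for Acod1 (3.86, nearest 2.75), and was the vehicle array of that time on which the Acod1 probe was well above background.

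The change of 3 genes differed between D1 and D180 in the test of the difference. For Hk3 the log2FC at D180 was larger by 1.63 (adjusted p = 0.000130), for Hk2 by 0.79 (adjusted p = 0.0327) and for Pfkfb3 by 0.70 (adjusted p = 0.0434). The Pfkfb3 difference takes in the D1 decrease seen with its brightest probe alone and against vehicle arrays of other scan dates. The Hk3 difference passed whichever rat was left out. The Hk2 difference was lost without any of 8 rats (D1 vehicle rats 5 and 6, D1 DQ-12 rats 2 and 5, D180 vehicle rats 1 and 6, D180 DQ-12 rats 2 and 4), with values of 0.71 to 0.78 and adjusted p of 0.0515 to 0.0648. The Pfkfb3 difference was lost without any of 15 rats (D1 vehicle rats 1, 5 and 6, D1 DQ-12 rats 1 to 4, D180 vehicle rats 1, 2, 3 and 5, D180 DQ-12 rats 1, 2, 3 and 6), with values of 0.60 to 0.72. The Acod1 difference between D1 and D180 gained the call without any of 5 rats (D1 DQ-12 rats 1, 2 and 6, D180 vehicle rat 6, D180 DQ-12 rat 5), with values of 1.85 to 1.98 and adjusted p of 0.0237 to 0.0490.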

How the results depend on the processing

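Over 15 alternatives, the count of the 10 genes past the adjusted p stayed within 1.5 times that given (7, 4 and 7) in 13 at D1, 12 at D30 and 14 at D180. With slide as a fixed block it was 1, 2 and 1, and with scan date as a fixed block 0 at D1, 2 at D30 and 6 at D180. With each time fitted alone it was 2 at D30. The count past both thresholds (2, 2 and 4) was 1, 1 and 1 with slide as a fixed block and 0 at D1 with scan date as a fixed block. It was 1 at D1 and 1 at D30 with median intensity without background correction, with normexp, and with a filter for probes clear of background in every rat of some group, which leaves Acod1 out. The fixed blocks rest on the few arrays of slides and dates that hold both groups, and slide as a block called 1.45% and 2.54% of all genes at D1 and D180. For genes whose change differed between times, the same 3 settings gave 1 between D30 and D180, and the median of a gene's probes gave 1 between D1 and D30. Between D1 and D180 the count was 0 with slide or scan date as a fixed block and 1 with either as a random block (intra-block correlation 0.387 and 0.251). The log2FC of Pfkfb3 at D1 was 0.22 with the median of its probes, opposite to the -0.60 of the brightest probe.

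Leaving out each rat in turn gave 7 to 7, 3 to 5 and 6 to 7 genes past the adjusted p, and 2 to 2, 2 to 2 and 4 to 4 past both thresholds. It gave 0 to 1 genes that differed between D1 and D30, 0 to 1 between D30 and D180 and 1 to 4 between D1 and D180. Beyond the calls named in the report, Hk2 at D30 passed without DQ-12 rat 5 of D30 (log2FC 0.56, adjusted p = 0.0215), its difference between D30 and D180 without DQ-12 rat 1 of D30 (0.98) or DQ-12 rat 6 of D180 (0.95), and that of Hk3 without DQ-12 rat 3 of D180 (1.00). With the replicate number as a block, the counts were 7, 3 and 7, and the pairing ended 1 call, that of the Slc2a1 D30 log2FC (adjusted p = 0.0612). Dim signal limits Acod1, whose probe was well above background on 12 of 36 arrays.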
